A study of Homo sapiens with 6 samples.

Results

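The DOCK proteins are a family of guanine nucleotide exchange factors, which switch on the small GTPases RAC and CDC42 and through them the actin changes of cell shape, adhesion and migration. The 8 genes described here (DOCK1, DOCK4, DOCK5, DOCK6, DOCK8, DOCK9, DOCK10 and DOCK11) are 8 of the 16000 genes listed for all 6 libraries, and DOCK2 and DOCK3 are given beside them. They were chosen by gene symbol with their CPM (counts per 1000000 counts of a library) in these libraries and their derived-to-parental ratios already known, so their levels and ratios are a description and carry no test.

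RNA was sequenced from 6 human lung adenocarcinoma lines, 1 library per line. PC-9 and HCC827 are the parental lines, both of which carry activating EGFR mutations as background knowledge. PC-9GR and PC-9ER derive from PC-9, and HCC827GR (HCC82GR in its label) and HCC827ER derive from HCC827, and the series describes the derived lines as having acquired resistance to EGFR tyrosine kinase inhibitors. All were grown in RPMI-1640 with serum. Neither GR nor ER is spelled out, and the labels give no inhibitor, dose or time, and do not say whether a derived line is a clone or a pool. The question behind the series is which signalling pathways go with the resistance.

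DOCK exchange factors lack the Dbl-type catalytic domain of most activators of such GTPases and instead carry a DHR-2 domain that binds the GTPase and a DHR-1 domain that binds membrane phosphoinositides. The DOCK-A group (DOCK1, DOCK2 and DOCK5) and the DOCK-B group (DOCK3 and DOCK4) act on RAC, usually in a complex with an ELMO protein. The DOCK-C group, with DOCK6 and DOCK8, acts on RAC and CDC42, and the DOCK-D group or zizimins (DOCK9, DOCK10 and DOCK11) mainly on CDC42. DOCK2, DOCK8, DOCK10 and DOCK11 are best known from leukocytes, where they serve migration and immune function.

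Total counts ran from 14529332 in HCC827 to 17832867 in PC-9GR, which puts a floor of 3 counts at 0.168 to 0.206 CPM. The intervals below (95%, exact binomial) cover counting error only, and with 1 library per line no spread between cultures is in them. Since reads carry no molecular identifiers, copies of the same molecule may be counted more than once, and the intervals may then be too narrow. The library labelled PC-9GR stood apart: its Spearman correlation across all genes was 0.825 with PC-9, 0.861 with HCC827 and 0.868 with HCC827GR, whereas each other derived line correlated with its parent at 0.919 to 0.970. Both ER libraries, and no others, come from the second of the 2 deposited tables, so ER lines and table cannot be told apart. Of 9 epithelial and lung markers, 6 to 8 reached 1 CPM in each library, with a summed level of 5646 to 17003 CPM. The keratins KRT7, KRT8 and KRT18 were at 856 CPM or more throughout, while EPCAM, CDH1 and KRT19 were lowest in the GR line of each parent. Lung lineage markers were lower: NKX2-1 reached 15.2 CPM in HCC827 and was at 0 in PC-9GR and HCC827ER, and SFTPB was at most 2.96 CPM. NAPSA was at 28.6 CPM in HCC827, 3.07 CPM in HCC827GR and 12.5 CPM in HCC827ER, and at most 0.505 CPM in the PC-9 lines. Leukocyte markers summed to 1.41 to 6.11 CPM over the 7 measured, and CD3E, LCP2 and CD53 were each at 0 to 0.138 CPM. CD14 stood at 5.05 CPM in PC-9GR, and CORO1A, which alone reached 1 CPM in every library, ran from 1.01 CPM in PC-9GR to 5.05 CPM in PC-9ER. Of 4 measured fibroblast markers COL1A1 alone reached 1 CPM. The endothelial sum was 220.0 CPM in PC-9, with 55.7 CPM in its ER line, carried by CDH5 and PECAM1 with KDR and TEK at 0, and to at most 0.964 CPM elsewhere. The part of these markers in the results below was not tested.

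Wherever 6 CPM values follow each other, they are those of the parent, the GR line and the ER line, first for PC-9 and then for HCC827. In such bulk samples, fewer expressing cells and less RNA per cell cannot be told apart. A log2 ratio is that of CPM in a derived line over its parent with a prior count of 2, and a gene is called changed in size when this is at least 1 either way and 1 of the 2 libraries has at least 1 CPM. All 8 genes reached 1 CPM in at least 1 library and passed the expression filter of the fit across all genes.

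**Figure D1:**
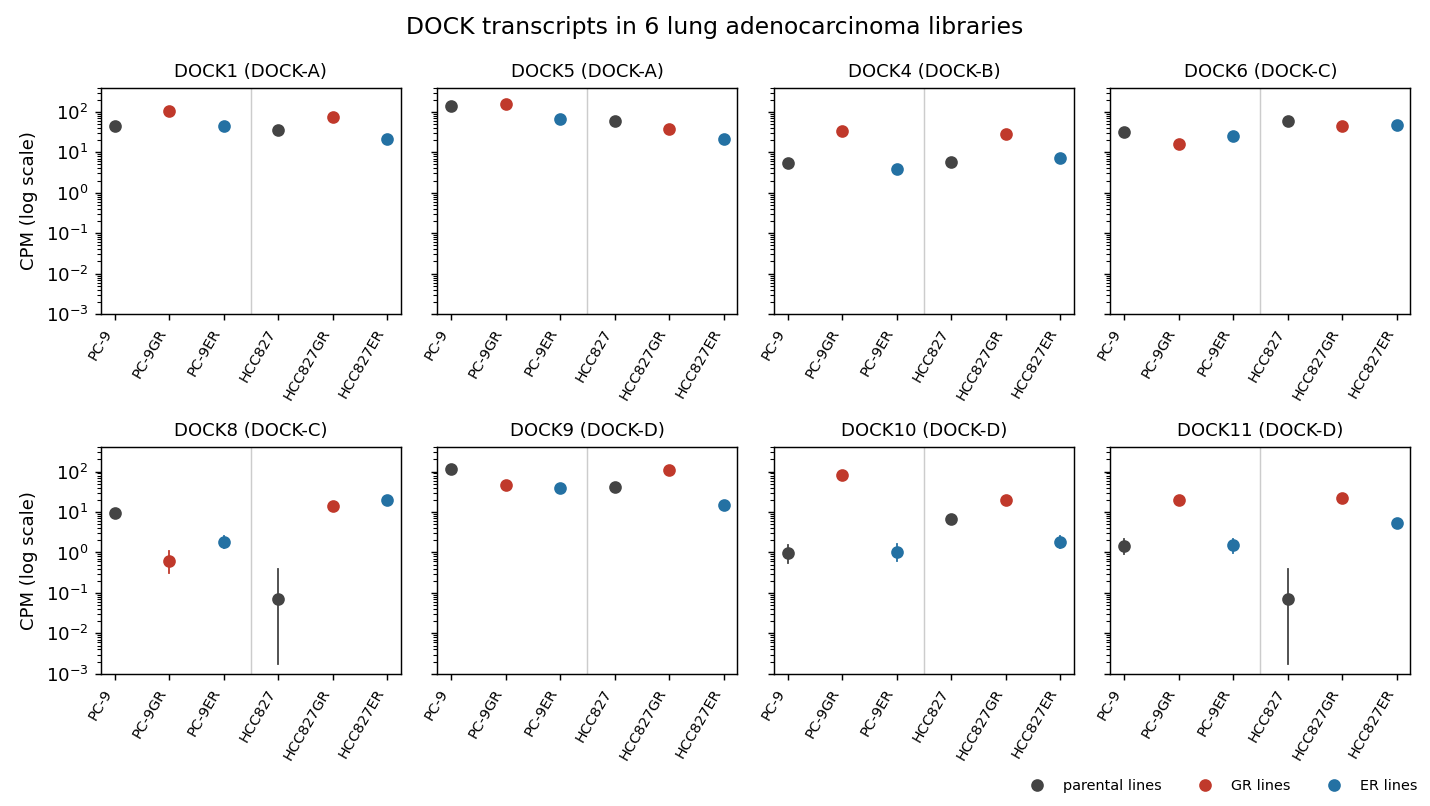
CPM of the 8 DOCK genes (log axis) in the 6 libraries, parental lines in grey, GR lines in red and ER lines in blue, with 95% counting intervals. DOCK4, DOCK10 and DOCK11 are highest in both GR lines, and DOCK8 is lowest in HCC827, where it has 1 count.

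The 8 genes differed in how far they varied. DOCK6 spanned 3.72-fold from its lowest to its highest library, DOCK1 5.06-fold, DOCK5 7.23-fold, DOCK9 7.93-fold and DOCK4 8.89-fold. DOCK10 spanned 86.9-fold, while DOCK8 and DOCK11 went from 1 count in HCC827 to 20.3 CPM in HCC827ER and 22.5 CPM in HCC827GR. Of the 32 combinations of gene and pair, 19 were at least 2-fold either way. Only DOCK6 had none among the 8, and no gene was at least 2-fold changed in 1 direction in all 4 pairs. The 4 pairs share 2 parental libraries, so the ratios of a parent's derived lines are not independent of each other.

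By pair, 4 of the 8 genes (DOCK1, DOCK4, DOCK10 and DOCK11) were at least 2-fold higher in PC-9GR than in PC-9, where 20.9% of 13018 genes were, and 2 (DOCK8 and DOCK9) were at least 2-fold lower, where again 20.9% were. In PC-9ER none was higher (5.49% of 12286 genes) and 3 were lower (DOCK5, DOCK8 and DOCK9, against 7.61%). In HCC827GR 5 were higher (DOCK4, DOCK8, DOCK9, DOCK10 and DOCK11, against 8.15% of 12595 genes) and none was lower (8.77%). In HCC827ER 2 were higher (DOCK8 and DOCK11, against 11.3% of 12599 genes) and 3 were lower (DOCK5, DOCK9 and DOCK10, against 28.4%). Since these ratios were known when the genes were picked, nothing is read from the excess over the background. The median log2 ratio of the 8 genes was 0.72 in PC-9GR, beside -0.02 over all genes, and -0.42 in PC-9ER, beside 0.03. For the HCC827 lines it was 1.47 in the GR line, beside 0.06, and -0.54 in the ER line, beside -0.36.

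**Figure D2:**
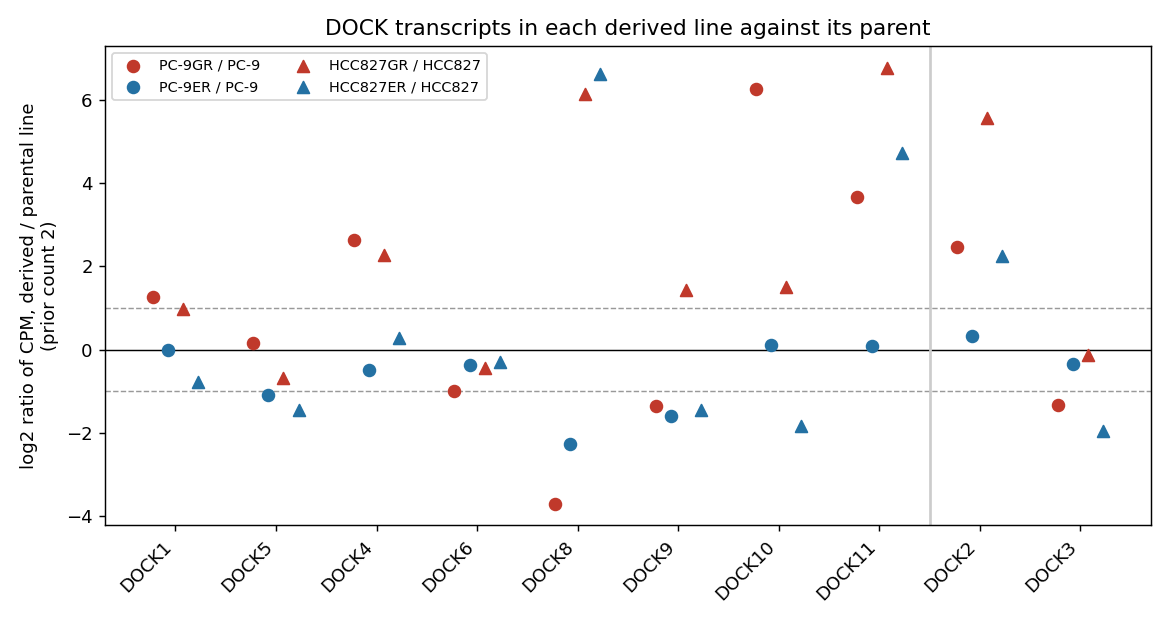
Log2 ratio of CPM of each derived line over its parent for the 8 DOCK genes and, right of the line, DOCK2 and DOCK3. Circles are PC-9 lines, triangles HCC827 lines, red GR and blue ER, and dashed lines mark a 2-fold change. DOCK8 lies below 0 in both PC-9 lines and above 6 in both HCC827 lines.

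Of the DOCK-A group, DOCK1 (NCBI gene 1793, chromosome 10, 126905409 to 127452517, plus strand, GRCh38 by GENCODE 29), the founding member that drives RAC in engulfment and migration, was at 44.6, 107, 44.1, 36.6, 72.7 and 21.2 CPM. Both GR lines held more DOCK1 than any of the other 4 libraries, and PC-9 and PC-9ER were nearly level. The ratio was 2.41-fold in PC-9GR (95% interval 2.21 to 2.63) and 1.99-fold in HCC827GR (1.79 to 2.21), against 0.990 in PC-9ER (0.894 to 1.10) and 0.580 in HCC827ER (0.506 to 0.663). INSYN2A, which lies within DOCK1, had at most 15 counts in any library.

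DOCK5 (80005, chromosome 8, 25184723 to 25418082, plus strand), a close relative of DOCK1 with a role in spreading of epithelial cells and in osteoclasts, was at 139.7, 158, 65.2, 59.9, 37.3 and 21.8 CPM. It was the DOCK gene with the highest CPM in PC-9GR and in both other PC-9 libraries. Within each parent the ER line was the lowest, at 0.466 of PC-9 (0.434 to 0.501) and 0.364 of HCC827 (0.321 to 0.411). The GR lines lay on either side of their parents, at 1.13-fold (1.07 to 1.19) in PC-9GR and 0.622 (0.558 to 0.692) in HCC827GR. DOCK2, the leukocyte member of this group, was at 1.18, 7.07, 1.51, 0.0688, 9.62 and 0.867 CPM, again with both GR lines above the rest.

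DOCK4 (9732, chromosome 7, 111726110 to 112206411, minus strand), a DOCK-B factor that activates RAC and has been linked to RAP1 and to WNT signalling, was at 5.44, 34.5, 3.89, 5.78, 28.6 and 7.06 CPM. The parental lines were alike, at a ratio of 1.06 for HCC827 over PC-9 (0.780 to 1.44), and both GR lines stood well above all other libraries. DOCK4 was 6.34-fold higher in PC-9GR (5.09 to 7.99) and 4.96-fold higher in HCC827GR (3.91 to 6.34). In the ER lines it was at 0.714 of PC-9 (0.513 to 0.988) and 1.22-fold of HCC827 (0.917 to 1.63). Its neighbours IMMP2L and ZNF277 had log2 ratios of 0.91 and 0.94 in PC-9GR and of -0.08 and 0.07 in HCC827GR. DOCK3, the mostly neuronal member of this group, was at 0.393 (GR) and 0.789 (ER) of PC-9 and at 0.916 (GR) and 0.245 (ER) of HCC827. In HCC827GR the interval was 0.671 to 1.25, so DOCK3 was level with the parent within counting error.

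DOCK6 (57572, chromosome 19, 11199295 to 11262481, minus strand), a DOCK-C factor for RAC and CDC42 whose loss causes Adams-Oliver syndrome, was at 31.9, 16.0, 24.8, 59.4, 43.7 and 48.5 CPM. Every HCC827 library was above every PC-9 library, and each derived line was below its parent. The sizes were small, at 0.501 (0.432 to 0.579) of PC-9 in its GR line and 0.778 (0.684 to 0.885) in its ER line, and at 0.735 (0.663 to 0.815) and 0.816 (0.741 to 0.898) of HCC827. With TMM scaling the HCC827ER log2 ratio turned from -0.29 to 0.05. The neighbouring RAB3D was also below the parent in each derived line. Its log2 ratios were -1.25 (GR) and -1.24 (ER) over PC-9 and -3.22 (GR) and -0.23 (ER) over HCC827. KANK2, on the other side, was lower in the ER lines only (GR 0.13 and ER -0.83 over PC-9, GR 0.32 and ER -1.31 over HCC827).

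DOCK8 (81704, chromosome 9, 214854 to 465259, plus strand), a CDC42 activator whose loss causes a combined immunodeficiency, was at 9.35, 0.617, 1.86, 0.0688, 14.5 and 20.3 CPM. The parents differed most for this gene, with 158 counts in PC-9 and 1 count in HCC827, a ratio of 136-fold (24.0 to 5400). The derived lines went opposite ways: both PC-9 lines were below PC-9 and both HCC827 lines were above HCC827. PC-9 held 15.2-fold more DOCK8 than PC-9GR (8.25 to 31.0) and 5.04-fold more than PC-9ER (3.43 to 7.62). HCC827GR held 211-fold (37.4 to 8354) and HCC827ER 295-fold (52.6 to 11682) the level of HCC827, intervals that are wide because the parent has 1 count. At least 2-fold lower in both PC-9 lines and at least 2-fold higher in both HCC827 lines were 27 of 13779 genes (0.196%), and the reverse pattern also held 27. The neighbouring gene KANK1 did not share this pattern, with log2 ratios of 1.12 (GR) and -0.63 (ER) over PC-9 and 0.84 (GR) and 0.36 (ER) over HCC827. Neighbours were looked at after their values were seen, and whether the counting used strand is not stated. PC-9ER gives the lower level of DOCK8 in a PC-9 line without resting on PC-9GR.

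The bases before the annotated starts of DOCK8 are shown because the gene had 1 count in HCC827 and 217 and 351 in its derived lines, and was lower in both derived lines of PC-9. RefSeq (GRCh38.p14) gives it 2 starts, and gene-level counts do not say which was used. The first start is preceded by 36 CG dinucleotides in 250 bases and the second by 3, against a median of 11 over 35114 promoter windows of this length. CG, the usual site of DNA methylation, is in capitals, and methylation was not measured here.
DOCK8, first start (chr9:214615-214864, plus strand): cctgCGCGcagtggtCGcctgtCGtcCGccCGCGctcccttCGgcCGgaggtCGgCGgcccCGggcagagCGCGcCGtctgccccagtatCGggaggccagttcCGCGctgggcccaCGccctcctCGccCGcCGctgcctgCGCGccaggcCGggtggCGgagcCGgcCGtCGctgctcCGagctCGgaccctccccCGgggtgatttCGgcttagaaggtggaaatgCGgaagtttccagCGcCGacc
DOCK8, second start (chr9:272796-273045, plus strand): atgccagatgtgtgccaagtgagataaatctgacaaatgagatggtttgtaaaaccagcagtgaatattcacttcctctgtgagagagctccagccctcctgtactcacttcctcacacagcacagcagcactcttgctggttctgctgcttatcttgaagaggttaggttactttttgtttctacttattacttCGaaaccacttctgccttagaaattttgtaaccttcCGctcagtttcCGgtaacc

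Of the DOCK-D group, DOCK9 (23348, chromosome 13, 98793429 to 99086625, minus strand), also called zizimin 1, a CDC42 activator found in many tissues, was at 117, 45.5, 39.0, 40.5, 110.0 and 14.8 CPM. PC-9 and HCC827GR were the highest libraries and the other 4 lay at 45.5 CPM or below. DOCK9 stood at 0.388 of the parent in PC-9GR (0.357 to 0.421), 0.332 in PC-9ER (0.304 to 0.363) and 0.365 in HCC827ER (0.314 to 0.424). HCC827GR was the exception, at 2.71-fold of HCC827 (2.47 to 2.99). Both neighbours went the way of DOCK9 in all pairs but HCC827ER. UBAC2 had log2 ratios of -0.78 (GR) and -0.37 (ER) over PC-9 and 0.33 (GR) and 0.40 (ER) over HCC827. SLC15A1 had -5.52 (GR) and -3.15 (ER) over PC-9, and only 0 to 3 counts in the HCC827 lines. The part of the neighbourhood in these ratios was not tested.

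DOCK10 (55619, chromosome 2, 224765090 to 225042445, minus strand), a factor for CDC42 and RAC known from lymphocytes, neurons and amoeboid tumour cell movement, was at 0.947, 82.3, 1.04, 6.81, 19.5 and 1.85 CPM. PC-9GR was far above all other libraries, HCC827GR came next, and PC-9 and PC-9ER were near 1 CPM. The ratio was 86.9-fold in PC-9GR (53.3 to 152) and 1.10-fold in PC-9ER (0.531 to 2.31). In HCC827 lines it was 2.86-fold higher in HCC827GR (2.27 to 3.63), while HCC827ER was at 0.272 of its parent (0.176 to 0.408). The neighbouring CUL3 had log2 ratios of -1.11, 0.08, -0.22 and -1.72 in the same 4 pairs. Without PC-9GR the libraries ran from 0.947 to 19.5 CPM.

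DOCK11 (139818, chromosome X, 118495898 to 118686163, plus strand), or zizimin 2, a CDC42 activator in B cells and other blood cells, was at 1.42, 19.5, 1.51, 0.0688, 22.5 and 5.32 CPM. It was again highest in both GR lines, with HCC827ER next and a single count in HCC827. DOCK11 was 13.7-fold higher in PC-9GR (9.06 to 21.7) and 1.06-fold in PC-9ER (0.586 to 1.93). Over HCC827 the ratio was 327-fold in HCC827GR (58.3 to 12952) and 77.3-fold in HCC827ER (13.5 to 3086). DOCK2, DOCK8 and DOCK11 each had exactly 1 count in HCC827, where the interval reaches 0.383 CPM, and between 15 and 351 counts in its derived lines. The genes on either side of DOCK11, WDR44 and IL13RA1, were lower in all 4 derived lines, by at most 1.47 on the log2 scale.

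Per kilobase of exon, which allows levels of different genes to be compared, DOCK9 (13.1 CPM per kb) and DOCK5 (12.0) led among the 8 genes in PC-9, and DOCK6 (9.34) and DOCK1 (5.34) in HCC827. In PC-9GR the order was DOCK1 (15.7 CPM per kb), DOCK5 (13.6) and DOCK10 (10.7), whereas DOCK10 was the lowest of the 8 in PC-9 (0.123). DOCK9 (12.3) and DOCK1 (10.6) led in HCC827GR, and DOCK6 led in HCC827ER (7.62 CPM per kb) with DOCK4, DOCK10 and DOCK11 at 0.866, 0.240 and 0.798. DOCK1 led in PC-9ER (6.43), ahead of DOCK5 (5.60) and DOCK9 (4.36). Without replicates no spread between cultures can be set beside these orders.

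Several of the genes shared a high level in the GR lines. DOCK4, DOCK10 and DOCK11 were at least 2-fold higher in both GR lines than in each of the other 4 libraries, as were 76 of 13779 genes (0.552%), and DOCK1 was also higher but by less, a rule that 7.45% of genes met. The lower GR library exceeded the highest other library 4.06-fold for DOCK4, 2.86-fold for DOCK10, 3.66-fold for DOCK11 and 1.63-fold for DOCK1. DOCK2, not among the 8, did so 4.69-fold. Leaving out PC-9GR, HCC827GR alone was at least 2-fold above the 4 parental and ER libraries for the same 3 genes of the 8 and for 296 genes in all. These genes were picked with this pattern visible. The epithelial markers EPCAM, CDH1 (E-cadherin) and KRT19 were low in the same libraries. EPCAM was at 383.5, 1.91, 406, 460.3, 28.98 and 107 CPM, and CDH1 at 322, 56.1, 252, 616, 116 and 129 CPM. KRT19 was at 1939, 13.1, 1066, 2159, 225 and 583 CPM. Other keratins did not share this in both parents. In PC-9, PC-9GR and PC-9ER, KRT8 was at 2569, 3635 and 1769 CPM and KRT18 at 1784, 2451 and 1118 CPM. Among the HCC827 lines both were lowest in the GR line. KRT7 was lowest in the ER line of each parent. The part of these markers in the DOCK levels was not tested.

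The bases before the starts of DOCK4 and DOCK11 and before the first start of DOCK10 are printed for comparison, with CG in capitals. DOCK4 has 24 CG in its 250 bases, DOCK11 has 17, and the first of 3 starts of DOCK10 has 27, each above the median of 11, while the other starts of DOCK10 have 5 and 2. The E-box CACCTG, the AP-1 motif TGANTCA and the TEAD motif GGAATG were searched on both strands in the windows of the 6 of the 8 genes that were read. Of all windows, 17.5% held the E-box, 6.57% the AP-1 motif and 11.9% the TEAD motif. Among the 10 windows of these 6 genes the single match was an E-box 143 bases before the third start of DOCK10, so no matches overlapped. A match is no evidence of a bound site, and a missing match says only that these letters are not in the window.
DOCK4 (chr7:112206400-112206649, minus strand): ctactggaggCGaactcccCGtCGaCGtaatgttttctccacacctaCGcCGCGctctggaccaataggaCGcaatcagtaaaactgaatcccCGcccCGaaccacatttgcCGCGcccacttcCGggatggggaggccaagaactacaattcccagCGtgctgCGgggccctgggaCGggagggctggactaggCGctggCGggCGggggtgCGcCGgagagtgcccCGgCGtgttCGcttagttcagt
DOCK10, first start (chr2:225042469-225042718, minus strand): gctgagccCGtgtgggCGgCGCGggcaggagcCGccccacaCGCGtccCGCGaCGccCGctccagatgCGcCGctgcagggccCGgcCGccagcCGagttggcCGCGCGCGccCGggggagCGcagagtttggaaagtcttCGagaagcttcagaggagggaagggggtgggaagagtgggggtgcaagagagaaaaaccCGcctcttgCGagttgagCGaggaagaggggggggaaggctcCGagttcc
DOCK11 (chrX:118495565-118495814, plus strand): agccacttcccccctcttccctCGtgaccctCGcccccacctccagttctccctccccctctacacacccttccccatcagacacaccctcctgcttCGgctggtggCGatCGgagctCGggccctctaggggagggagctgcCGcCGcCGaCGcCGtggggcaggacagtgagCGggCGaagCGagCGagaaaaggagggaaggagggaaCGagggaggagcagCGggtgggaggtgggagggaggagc

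All 8 genes have long transcripts, with 6.36 to 11.6 kb of exon against a median of 3.57 kb, and the ratios of all genes moved with length. In HCC827ER the median log2 ratio went from 0.32 for genes under 2 kb to -0.85 for those of 6 to 8 kb and -1.11 for those over 8 kb, and 44.3% and 54.2% of the genes in these longest classes were at least 2-fold lower. DOCK5 (log2 ratio -1.45), DOCK9 (-1.45) and DOCK10 (-1.82) were called lower there, and DOCK1 (-0.78) lay close to the median of its class. PC-9ER had the same trend at a smaller size, from 0.34 under 2 kb to -0.24 and -0.42 in the longest classes, in which DOCK5 (-1.10), DOCK8 (-2.26) and DOCK9 (-1.59) stood lower. HCC827GR, in which 5 of the 8 genes were called higher, went the other way, from -0.06 to 0.17, and PC-9GR went from 0.27 to -0.31. Genes of ribosomal proteins also took 16.1% of the HCC827ER counts, where the other 5 libraries ranged from 5.85% to 8.50%. The part of length and of ribosomal protein counts in the DOCK ratios was not tested.

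**Figure D3:**
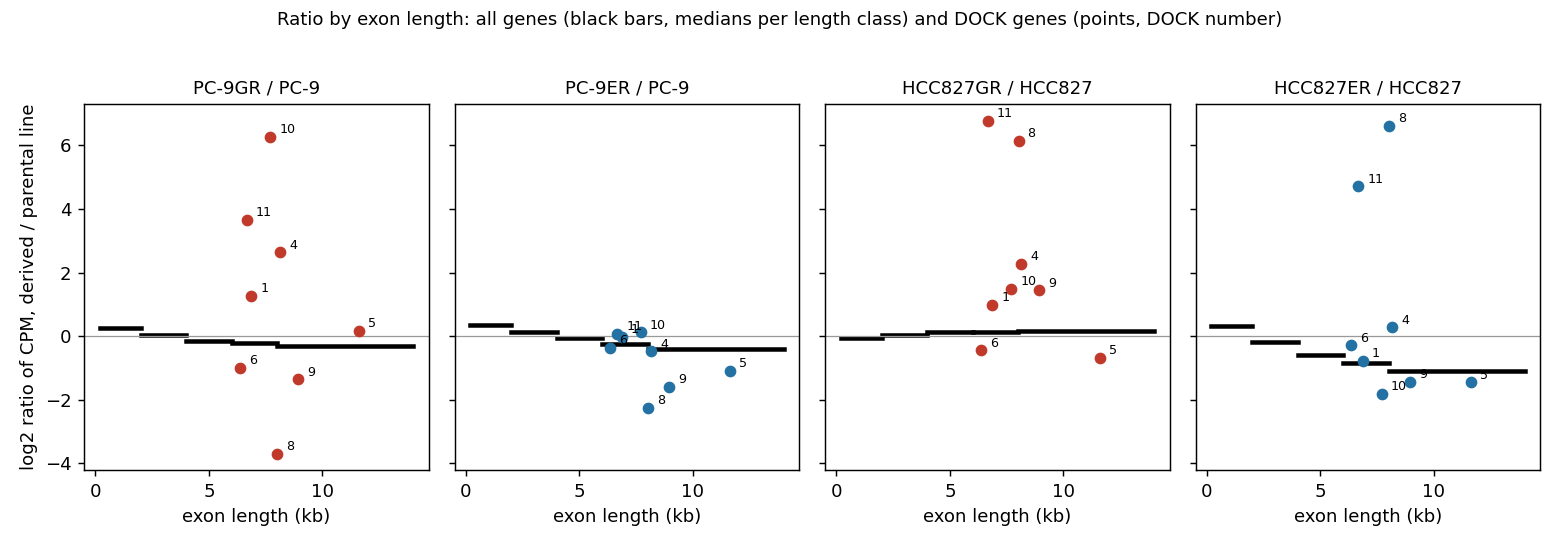
Log2 ratio of CPM against exon length (kb) in the 4 pairs. Black bars are medians of all genes in 5 length classes, and points are the 8 DOCK genes, labelled by their number. In HCC827ER the medians go from 0.32 under 2 kb to -1.11 over 8 kb.

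Scaling mattered most for HCC827ER: TMM raised all its log2 ratios by 0.34, against shifts of at most 0.05 in the other pairs. The ratios of DOCK5, DOCK9 and DOCK10 in this line stayed at least 2-fold lower with TMM (-1.11, -1.10 and -1.48), and DOCK1 went from -0.78 to -0.44.

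The parental lines themselves differed in these genes. HCC827 had 7.20-fold more DOCK10 than PC-9 (4.22 to 13.1) and 1.86-fold more DOCK6 (1.67 to 2.08). PC-9 had 2.89-fold more DOCK9 (2.64 to 3.18), 2.33-fold more DOCK5 (2.16 to 2.52) and 20.6-fold more DOCK11 (3.37 to 849), the last against the single count in HCC827. DOCK1 was 1.22-fold higher in PC-9 (1.09 to 1.36). With 1 library per line, such differences have no replicate check.

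The genes that surround DOCK proteins in the RAC and CDC42 pathway were taken from 5 lists: partners and adaptors, GTPases, effectors, Dbl-family exchange factors, and GTPase-activating proteins with GDP dissociation inhibitors. None of the 95 tested genes of these lists passed the test of derived against parental lines, fitted with the origin of each line as a covariate (edgeR quasi-likelihood test, Benjamini-Hochberg, smallest adjusted p = 0.999), and 6 had an unadjusted p below 0.05. None of all 13492 tested genes was called (0%), with 342 at the unadjusted threshold. DESeq2 called 21 higher and 13 lower, none of them a listed gene, and limma-voom called 0. The spread in this test is that left between lines once origin and status are fitted, with 3 residual degrees of freedom. It holds the differences between GR and ER lines and the difference in change between the parents, and says nothing of repeat cultures. A value after ± is a standard error, taken as the size of the fitted log2 change divided by the square root of the F statistic.

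By size, 17 of 95 partner genes were at least 2-fold higher and 31 lower in PC-9GR, 3 and 17 of 90 in PC-9ER, 9 and 15 of 93 in HCC827GR, and 8 and 38 of 92 in HCC827ER. The higher shares were thus 17.9%, 3.33%, 9.68% and 8.70%, beside the 20.9%, 5.49%, 8.15% and 11.3% of all genes, and the lower shares 32.6%, 18.9%, 16.1% and 41.3%, beside 20.9%, 7.61%, 8.77% and 28.4%. Their median log2 ratios were -0.32, -0.23, -0.04 and -0.83. The Dbl-family list had the lowest medians in both ER lines, -0.52 in PC-9ER and -1.51 in HCC827ER, and -0.46 and -0.18 in PC-9GR and HCC827GR. Exon length, with which the ratios of all genes moved, was not taken into account in these shares and medians. Its part was not tested.

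The ELMO proteins, which DOCK-A and DOCK-B factors need for full activity, differed between lines and were looked at after their values were seen. ELMO2 was the even one, at 34.4, 42.1, 41.9, 33.8, 35.9 and 24.7 CPM. ELMO1 was at 0 to 1 count in all libraries except PC-9GR, where it stood at 6.67 CPM. ELMO3, an epithelial member, was at 37.1, 0.841, 31.1, 55.1, 27.7 and 77.4 CPM. The library labelled PC-9GR thus held ELMO1 and little ELMO3, the reverse of the other 5.

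Among the adaptors, NEDD9, a docking protein that brings CRK to DOCK factors, was higher in all 4 pairs, at 85.2, 151, 155, 1.72, 4.41 and 4.16 CPM (fitted log2 fold change 1.14 ± 0.35, adjusted p = 0.999). STK4, the Hippo kinase that acts through MOB1 on DOCK8, was lower in all 4, by -0.87, -0.50, -0.04 and -1.54 on the log2 scale. LRCH4, of a family that binds DOCK-C proteins, had a fitted change of -0.68 ± 0.37.

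Of the GTPases, RAC1, the main target of DOCK-A factors, was lower in all 4 pairs by at most 0.80 on the log2 scale, at 486, 398, 430, 605, 462 and 348 CPM. CDC42 was at 152, 189, 198, 204, 209 and 219 CPM. Its CPM was a little above the parent in each derived line, but the log2 ratio in HCC827GR was only 0.03. TMM scaling shifts the ratios of that pair by -0.05, so the direction there depends on the scaling. RAC3 (0.76 ± 0.55) and RHOQ, a CDC42 relative (1.06 ± 0.66), were higher in all 4 pairs. Both sizes differed with the libraries in the fit. RAC3 went to 1.42 without PC-9, 0.18 without HCC827 and 0.38 without HCC827ER. RHOQ went to 0.53 without PC-9, 0.44 without PC-9GR and 1.67 without HCC827. Without a parental library, the fitted change comes from the lines of the other parent alone. RAC2, the blood cell RAC, singled out after its values were seen, stood at 129 to 249 CPM in 5 libraries and at 0.112 CPM in PC-9GR. RHOU, an atypical CDC42 relative chosen in the same way, was at 0 in PC-9 and PC-9ER and at 17.4 CPM in PC-9GR, and went from 0.551 CPM in HCC827 to 5.68 and 4.40 CPM in its GR and ER lines.

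Of the effectors, CDC42BPG, a CDC42-binding kinase, was lower in all 4 derived lines, at 57.2, 1.46, 30.3, 41.5, 5.07 and 16.1 CPM (-1.78 ± 1.07), and BAIAP2, which links RAC and CDC42 to membrane protrusion, had a fitted change of -0.85 ± 0.31. ABI3, of the WAVE complex, was higher in all 4 pairs but had at most 1 count in each PC-9 line (2.45 ± 1.08). Among Dbl-family factors, FGD3, a CDC42 activator, was at 27.9, 0.112, 9.16, 11.7, 0.401 and 0.867 CPM (-3.31 ± 1.36) and MCF2L at 38.8, 1.96, 3.89, 1.24, 0.134 and 0.578 CPM (-2.80 ± 0.91). PREX1, a RAC activator downstream of PI3K, was higher in all 4 pairs (1.97 ± 0.97), though with 0 to 3 counts in the HCC827 lines. Of the inhibitors, ARHGAP32 (-1.40 ± 0.47) and SRGAP2 (-0.60 ± 0.45) were lower in all 4 pairs, while ARHGDIA, which holds such GTPases in the cytosol, was higher in all 4 (0.74 ± 0.42). None of these genes passed the edgeR test (adjusted p = 0.999 each). Leaving out 1 library moved several sizes by over 1.5 times without turning a sign. Without PC-9, where the change comes from the HCC827 lines alone, PREX1 went to 4.50, MCF2L to -1.50 and ARHGDIA to 0.44. For PREX1 those lines hold only 0 to 3 counts. Without PC-9GR, PREX1 went to 1.17, SRGAP2 to -0.40 and ARHGDIA to 0.47. Without PC-9ER, FGD3 went to -5.50 and CDC42BPG to -3.29.

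**Figure D4:**
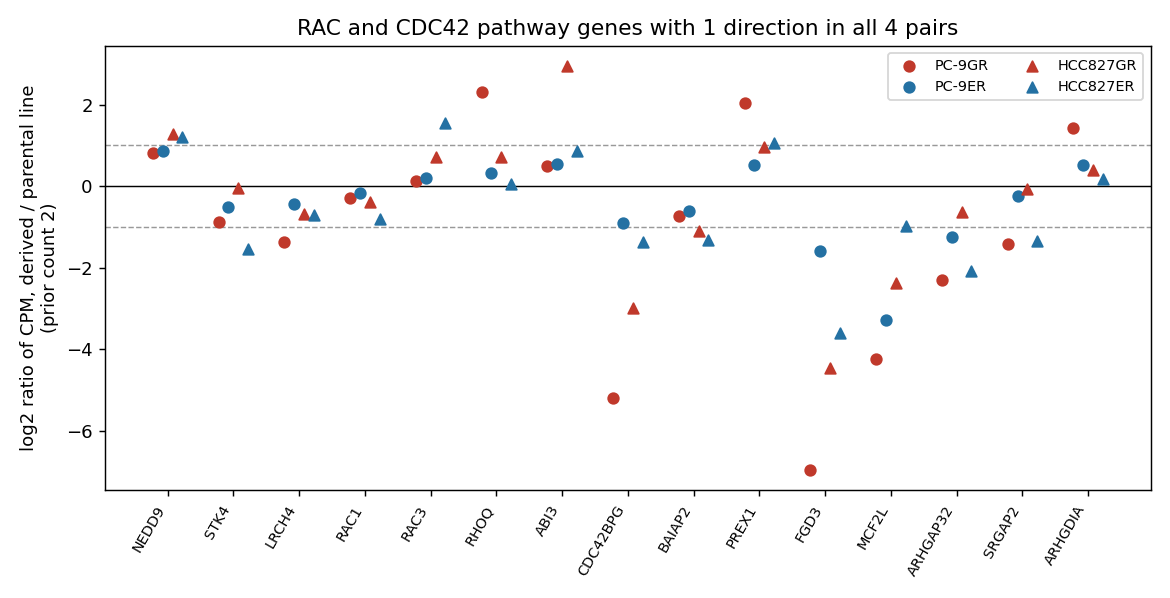
Log2 ratio of CPM of each derived line over its parent for the 15 named pathway genes, which have 1 direction in all 4 pairs by the rule that named them. Circles are PC-9 lines, triangles HCC827 lines, red GR and blue ER, and dashed lines mark a 2-fold change. FGD3 has the lowest value, in PC-9GR.

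The genes whose log2 CPM followed a DOCK gene most closely over the 6 libraries were taken for 4 of the 8 genes. These were the ones among the 8 that spanned at least 3 on the log2 scale. The measure was Pearson's r among 13491 other genes, and with 6 libraries such values are a description. For DOCK4 they were SLC39A10, a zinc transporter (r = 0.991), F2R, the thrombin receptor (0.990), and TRIM65, a ubiquitin ligase (0.985). F2R also had a like size of change, at 25.7, 106, 16.5, 21.5, 78.6 and 23.7 CPM. DOCK8 was followed by the convertase PCSK6 (0.981), the adenosine receptor ADORA2A (0.980) and the survival factor BCL2 (0.968). Of these BCL2 had a wide range, at 7.58, 1.68, 3.13, 0.138, 16.2 and 10.7 CPM. DOCK10 was followed by SNAPC3 (0.995), TMEM68 (0.993) and RHEBL1 (0.992), each of them highest in PC-9GR, and DOCK11 by PACS2 (0.982), the calcium sensor NCALD (0.977) and NAT8L (0.970). PACS2 spanned no more than 51.7 to 61.9 CPM, so a high r does not mean a change of like size.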

How the data were processed

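Expected counts per gene were deposited by the authors in 2 tables set side by side, estimates that are whole numbers for all but 13.2% to 14.3% of values. Per the submitters' processing notes, HISAT2 2.0.4, Cuffdiff and the build GRCh38.p13 are named, without their settings, while the sources used here name no counter. Per the labels' protocols, libraries came from a stranded TruSeq Ribo-Zero kit, and whether counting used strand is not stated. The 16000 genes in both tables were used (854 and 306 were in 1 table only). CPM divides by the total over these genes. Counts were rounded for edgeR 4.0.16 (R 4.3.3), with TMM, filterByExpr, robust quasi-likelihood fits across all genes and Benjamini-Hochberg adjustment at 0.05, a script first tested on simulated data. DESeq2 1.42.0 and limma 3.58.1 were alternatives. Ratio intervals are exact binomial on the counts of both libraries. Exon lengths are unions of coding transcripts of GENCODE 29 (96.2% of genes matched by symbol). Promoter sequences are RefSeq's, and 6 of the 8 genes were read. The members and lists were chosen with earlier results of these data known. Beside the 8 genes, DOCK2 and DOCK3, each list names up to 2 genes each way with the largest median ratio. These are taken among genes with 1 sign in all 4 pairs and at least 10 CPM in 1 library. Each of the 8 genes that spans at least 3 in log2 CPM names its 3 most similar genes.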

Additional observations from a re-analysis of the deposited data

Results flagged for a closer look

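DOCK8 was picked out because both derived lines of PC-9 moved one way and both derived lines of HCC827 the opposite way. Its log2 ratio of CPM was -3.70 in PC-9GR and -2.26 in PC-9ER against PC-9, and 6.15 in HCC827GR and 6.63 in HCC827ER against HCC827. With TMM scaling the values were -3.66, -2.27, 6.10 and 6.97. The difference between the parents' lines was not tested, the PC-9GR value rests on a library that stood apart, and both HCC827 values rest on 1 count in the parent.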

How the results depend on the processing

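Of the 32 gene-by-pair ratios of the 8 DOCK genes, none called at least 2-fold turned its direction under a prior count of 0.5, TMM scaling or totals over all listed genes, and the number of the 8 called in each pair and direction stayed within 1.5 times under these and a minimum of 5 CPM. TMM moved 4 ratios beyond their counting interval, all in HCC827ER (DOCK1 -0.44, DOCK5 -1.11, DOCK6 0.05 and DOCK9 -1.10). The count of all genes at least 2-fold higher in HCC827ER went from 1419 to 2247 with TMM scaling. With a minimum of 5 CPM, 420 genes in place of 674 were higher in PC-9ER and 735 in place of 1104 were lower in HCC827GR. In resistant against parental lines DESeq2 called 21 higher and 13 lower where edgeR called 0 each way, also with RLE size factors, no filter, unrounded counts, limma-voom and without each library in turn. Alternatives chosen after seeing the data changed the number of all genes at least 2-fold higher in both GR lines than elsewhere from 76 to 296 without PC-9GR and to 187 at a fold of 1.5. Likeness of F2R to DOCK4 was 0.829 by Spearman's rho. Depth limits DOCK2, DOCK8 and DOCK11 in HCC827, each at 1 count.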

Other observations

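CYFIP2, a subunit of the WAVE complex through which RAC builds branched actin, was singled out after its values were seen. It was at 0.0592 CPM in PC-9, 64.8 in its GR line and 0 in its ER line, and at 2.06, 54.8 and 39.7 CPM in HCC827 and its GR and ER lines. The libraries at or above 39.7 CPM are PC-9GR, HCC827GR and HCC827ER, which are also the 3 with the most DOCK11 (19.5, 22.5 and 5.32 CPM). Its near relative CYFIP1 stood at 132, 197, 118, 128, 169 and 98.8 CPM.

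ARHGDIB, the GDP dissociation inhibitor best known from blood cells and likewise singled out after its values were seen, was at 202, 1.18, 285, 459, 153 and 39.4 CPM, so that PC-9GR was the lowest library. WIPF1, a partner of WASP proteins, was at 39.8 CPM in PC-9GR and at 0.0578 to 1.12 CPM in the other 5 libraries.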
